A study of Mus musculus with 27 samples.

Results

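Cultured mouse mixed glia given lipopolysaccharide (LPS) for 24 h were compared with untreated glia of the same experiment across every gene with counts high enough to test. The libraries were chosen by their labels, 3 of LPS-treated glia and 3 of untreated glia, which makes 6 of the 27 libraries of the series. Of 54532 annotated genes, 16073 were tested. Both groups came from the cortices of C57BL/6 mice at postnatal day 3 to 6, were grown for 14 days in vitro in medium with fetal bovine serum, and differed in the addition of 100 ng/mL LPS. The series has 2 experiments with an untreated group each. Experiment 1 also holds glia given LPS with bryostatin-1, with interferon gamma or with both, and experiment 2 holds glia given interleukin 4 (IL-4, 20 ng/mL for 24 h), bryostatin-1 or both. Bryostatin-1 is a marine compound that binds protein kinase C. A mixed culture was not sorted, so each library pools all its cell types, and fewer cells of a type and less RNA per cell cannot be told apart in any value below. The labels do not say whether replicates were separate cultures or animals, and p-values therefore measure the spread between libraries, which may be technical.

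LPS, a component of the outer wall of Gram-negative bacteria, is carried by LPS-binding protein to CD14 and then to the receptor pair of TLR4 and MD-2 on microglia and, at lower levels, on astrocytes. The receptor signals through the adaptor MyD88 to the NF-kB factors, which turn on cytokine and chemokine genes, and through the adaptor TRIF to interferon beta. Secreted interferon beta then acts on its receptor on neighbouring cells, where a complex that holds STAT2 and IRF9 binds the interferon-stimulated response element (ISRE). In brain tissue this is a standard model of inflammatory glia, in which microglia lose their resting profile and astrocytes turn reactive.

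Levels are CPM (counts scaled to a common library size), scaled with TMM factors, and are given per library in the order of replicates 1, 2 and 3. Differences between the groups are log2 fold changes of LPS over untreated with their SE (after ±), from edgeR's quasi-likelihood test with Benjamini-Hochberg adjustment over all genes tested, and a gene is said to have risen or fallen where the adjusted p was under 0.05. Total counts were 17230058 to 20002626 per library, so 3 counts equal 0.15 to 0.174 CPM. The untreated library labelled replicate 1 stood apart from the other two. Across genes its log2 levels had a Pearson r of 0.973 and 0.974 with replicates 2 and 3, against 0.996 between those 2 and 0.996 to 0.997 among the LPS libraries. Sox10, which drives oligodendrocyte development and was picked here with its values known, had 30.6, 34.5 and 34.1 CPM with LPS, against 0.161, 33.4 and 30.1 CPM in untreated glia. The same library was low for the interferon-induced gene Oasl2, at 8.53 CPM against 39.4 and 39.5 CPM in untreated replicates 2 and 3, and high for the haem oxygenase gene Hmox1, at 332 CPM against 130.2 and 121 CPM. Its r with untreated replicates 2 and 3 of experiment 2 was 0.996 each, while the untreated replicate 1 of experiment 2 had 0.985 and 0.978 with untreated replicates 2 and 3 of experiment 1, against 0.966 and 0.958 with those of its own group. Each of the pair was thus closer to the other experiment's untreated libraries than to its own, and whether their labels were exchanged was not tested. The labels were kept, so every untreated mean below includes a library in doubt. Values without it are given beside some of the genes and counts that it changes, not all. Counts given without such a value may change too: in the glycolysis list 16 genes rose with it and 19 without it. In the DNA replication list 18 fell with it and 21 without it.

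Promoters are shown first for genes whose results recur below, to set the letters beside the levels. These genes were picked by hand and each holds a match, so they do not stand for all genes that rose or fell. Isg15 and Ifit3 are interferon-stimulated genes, B2m and H2-K1 encode the class I antigen-presenting molecule, Cxcl1 encodes a neutrophil-attracting chemokine, Tnfaip3 encodes the A20 brake on NF-kB, and Mcm5 encodes a subunit of the helicase that opens DNA for replication. Each sequence is the RefSeq window on build GRCm38.p6 from 250 bases before to 50 bases after the start of the gene, 5′ to 3′ on the strand of the gene, 300 bases in all. Capitals mark matches on either strand to the ISRE core (TTTC, any 2 bases, TTTC), to the kappa-B consensus (searched by its 10-base ambiguity pattern) or to the E2F site, searched as TTTCCCGC, TTTCGCGC, TTTGCCGC and TTTGGCGC. Overlapping matches form 1 run of capitals.
Isg15 (chr4:156200769-156201068, minus strand): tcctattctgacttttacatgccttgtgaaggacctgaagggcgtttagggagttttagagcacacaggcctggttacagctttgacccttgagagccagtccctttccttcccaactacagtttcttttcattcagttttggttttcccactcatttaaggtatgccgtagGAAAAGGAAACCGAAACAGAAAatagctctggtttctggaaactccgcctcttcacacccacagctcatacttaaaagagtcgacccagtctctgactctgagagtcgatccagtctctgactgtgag
Ifit3 (chr19:34583279-34583578, plus strand): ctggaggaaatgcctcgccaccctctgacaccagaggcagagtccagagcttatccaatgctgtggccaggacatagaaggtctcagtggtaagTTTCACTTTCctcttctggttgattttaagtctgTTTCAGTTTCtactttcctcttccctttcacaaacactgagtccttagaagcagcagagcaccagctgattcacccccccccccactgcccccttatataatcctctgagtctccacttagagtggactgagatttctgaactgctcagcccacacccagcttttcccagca
B2m (chr2:122147437-122147736, plus strand): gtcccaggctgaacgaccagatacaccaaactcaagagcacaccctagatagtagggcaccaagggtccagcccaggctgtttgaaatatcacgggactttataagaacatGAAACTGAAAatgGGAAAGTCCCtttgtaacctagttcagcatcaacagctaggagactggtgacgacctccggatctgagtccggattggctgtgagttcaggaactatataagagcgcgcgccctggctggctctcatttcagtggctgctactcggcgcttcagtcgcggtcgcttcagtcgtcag
H2-K1 (chr17:34000298-34000597, minus strand): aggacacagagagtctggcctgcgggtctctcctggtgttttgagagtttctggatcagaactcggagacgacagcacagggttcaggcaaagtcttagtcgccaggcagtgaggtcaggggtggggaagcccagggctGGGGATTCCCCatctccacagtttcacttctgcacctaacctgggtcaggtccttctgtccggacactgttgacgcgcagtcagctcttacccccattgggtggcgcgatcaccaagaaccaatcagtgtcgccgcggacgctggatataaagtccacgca
Cxcl1 (chr5:90890995-90891294, plus strand): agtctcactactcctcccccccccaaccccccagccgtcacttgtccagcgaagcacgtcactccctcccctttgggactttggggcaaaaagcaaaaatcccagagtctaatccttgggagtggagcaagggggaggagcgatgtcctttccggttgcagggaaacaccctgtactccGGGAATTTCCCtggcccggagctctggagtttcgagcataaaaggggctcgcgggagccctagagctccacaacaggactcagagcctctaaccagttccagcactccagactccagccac
Tnfaip3 (chr10:19015361-19015660, minus strand): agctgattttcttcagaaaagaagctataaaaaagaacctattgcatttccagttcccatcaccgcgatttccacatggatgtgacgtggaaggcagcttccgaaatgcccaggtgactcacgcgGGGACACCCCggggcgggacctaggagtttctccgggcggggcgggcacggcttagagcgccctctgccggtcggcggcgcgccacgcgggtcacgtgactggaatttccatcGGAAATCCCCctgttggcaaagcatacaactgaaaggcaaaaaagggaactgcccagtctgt
Mcm5 (chr8:75109259-75109558, plus strand): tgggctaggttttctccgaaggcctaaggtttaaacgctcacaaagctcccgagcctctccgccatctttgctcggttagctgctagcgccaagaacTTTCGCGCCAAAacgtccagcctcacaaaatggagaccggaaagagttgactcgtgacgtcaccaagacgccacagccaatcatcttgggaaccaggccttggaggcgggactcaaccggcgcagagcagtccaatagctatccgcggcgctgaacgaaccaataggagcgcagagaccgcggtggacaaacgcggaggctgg
Isg15 held 3 overlapping ISRE cores between 78 and 57 bases before its start, Ifit3 held 2 and B2m held 1 beside a kappa-B match. H2-K1 and Cxcl1 each held a kappa-B pair that overlaps by all but 1 base, Tnfaip3 held 2 separate kappa-B matches and Mcm5 held E2F matches on both strands that overlap. RefSeq holds a second window for Tnfaip3 (chr10:19011914-19012213), with no match, and for H2-K1 (chr17:34000284-34000583), with the same 2 matches. These are matches of letters and say nothing of binding.

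Among promoters of genes that rose over 2-fold, 12.2% held an ISRE core, 133 of 1094, against 2.9% of those that fell over 2-fold, 3.22% of all genes tested and 3.44% of all promoters in the reference. For the kappa-B consensus the shares were 10.9%, 5.13%, 5.51% and 4.51% in the same order, and for the AP-1 site (TGANTCA) 12.1%, 6.24%, 5.62% and 7.81%. The interferon-gamma-type element GAS (TTCNNNGAA) was in 10.1%, 6.13%, 6.86% and 8.3%. The E2F site was in 1.55% of promoters of genes that rose over 2-fold and 3.12% of those that fell. Both shares were below the 3.61% of all genes tested, and all promoters in the reference had 2.26%. Promoters were found for 877 of the 1295 genes that rose and 698 of the 958 that fell over 2-fold, and a gene may have several. No test was made of these shares. The ISRE core was in 10 of 18 promoters of nucleic acid sensor genes, the kappa-B consensus in 12 of 27 promoters of NF-kB subunit and inhibitor genes, and the E2F site in 10 of 27 promoters of DNA replication genes. Other lists that rose or fell differed by motif. The ISRE core was in 0 of 13 promoters of CC chemokine genes and in 3 of 15 of immunoproteasome and peptide loading genes. The kappa-B consensus was in 3 of 13 promoters of CC chemokine genes and 4 of 11 of CXC and CX3C chemokine genes. It was in 1 of 15 (6.67%) of immunoproteasome and peptide loading genes. The E2F site was in 1 of 22 promoters of mitosis genes (4.55%).

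LPS changed 6164 of the 16073 genes tested, 38.4%, with 3141 higher (19.5%) and 3023 lower (18.8%). These 2 shares are the background for the counts of every list below. The large changes were mostly gains: 1295 genes rose over 2-fold (8.06%) and 958 fell over 2-fold (5.96%), 723 rose and 203 fell over 4-fold, and 371 rose and 33 fell over 10-fold. In 5936 of the called genes no LPS library lay within the range of the untreated libraries. That count largely follows from the call itself, and the share over all genes tested was not counted. The median log2 change of all genes tested was -0.008. Of protein-coding genes 2904 rose and 2826 fell of 14293, of lincRNA genes 78 rose and 71 fell of 445, and of processed pseudogenes 29 rose and 10 fell of 284.

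**Figure D1:**
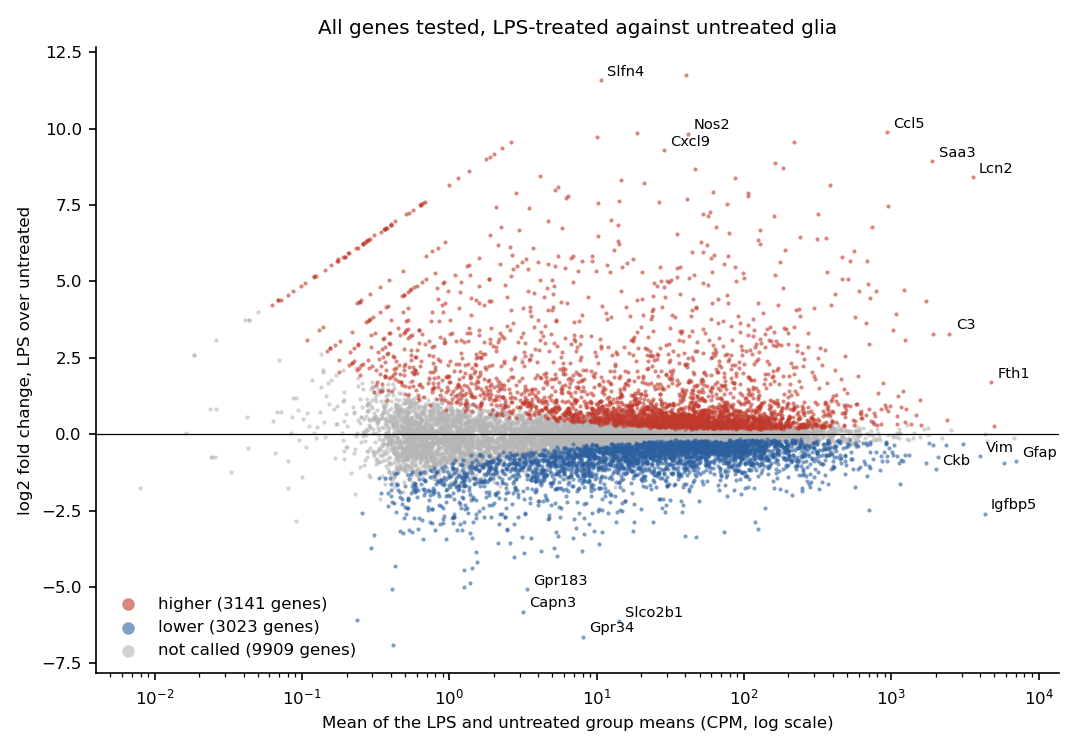
Each point is 1 of the genes tested, with the mean of the LPS and untreated group means on the x axis (CPM, log scale) and the log2 fold change of LPS over untreated on the y axis; red genes rose (3141), blue genes fell (3023) and grey genes were not called (9909). Points on straight lines at the upper left are genes with 0 or few counts in untreated glia, 1 gene with 0 counts in both groups is not drawn, and the largest losses among protein-coding genes at 5 CPM or more (Gpr34, Slco2b1, Capn3 and Gpr183) are named.

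The largest rises came from genes all but silent in untreated glia. Slfn4, a Schlafen family gene of myeloid cells, had 19.6, 24.6 and 19.99 CPM with LPS and 0 counts in all 3 untreated libraries, which is at least 430.0-fold higher against a floor of 3 counts over the untreated group. Tarm1, an activating receptor of myeloid cells, was likewise at 0 in untreated glia and at least 104-fold higher with LPS, at 5.12, 5.56 and 4.97 CPM. Slfn1, another Schlafen gene, had 2 counts in the untreated group, both in replicate 2, and a ratio of 1129.7 (95% counting interval 312 to 9334). Slamf7, a receptor of immune cells, had 1 untreated count, in replicate 3, and a ratio of 1207 (95% counting interval 216 to 47703). Without the library that held those counts the fitted log2 change was 12.39 for Slfn1 and 11.48 for Slamf7, against 9.87 ± 0.28 and 9.73 ± 0.35 with all libraries. These floors and intervals cover counting error only, and the near-identical members of the Schlafen family may share reads.

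Other genes started from a measurable level. Ccl5, a chemokine for T cells and monocytes, had 1761, 2014 and 1779.8 CPM with LPS, against 0.858, 2.57 and 2.39 CPM in untreated glia, a log2 change of 9.88 ± 0.27 (adjusted p = 2e-13). Saa3, an acute phase apolipoprotein, had 3767, 3829 and 3769 CPM with LPS, against 3.92, 7.06 and 11.98 CPM in untreated glia (8.94 ± 0.33, adjusted p = 3.1e-11). H2-Q6, a class I gene of the Qa region, had 314, 355 and 303 CPM with LPS and 0.536, 0.395 and 1.10 CPM in untreated glia (8.87 ± 0.21, adjusted p = 3e-14). In each case the groups lay far apart. Ccl7, a monocyte chemokine, rose by 9.57 ± 0.26, or by 10.43 without untreated replicate 3. Cxcl9, a T cell chemokine, rose by 9.31 ± 0.35, or by 10.78 without that library, from which 4 of its 5 untreated counts came. Ifi205, a DNA-binding protein of the interferon-inducible p200 family whose members are alike in sequence, rose by 8.68 ± 0.23, or by 9.41 without it.

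The largest losses hit myeloid and scattered other genes. Gpr34, a lysophosphatidylserine receptor of resting microglia, had 0.165, 0.237 and 0.0546 CPM with LPS, against 13.4, 18.8 and 15.9 CPM in untreated glia. Slco2b1, an organic anion transporter, fell by 6.11 ± 0.34 on the log2 scale (adjusted p = 4e-10), and Gpr183, the oxysterol-sensing receptor that guides immune cells, fell by 5.06 ± 0.54 (adjusted p = 1.4e-06). Capn3, a calpain protease, had 0, 0.190 and 0.109 CPM with LPS and 4.29, 7.95 and 6.25 CPM in untreated glia (-5.80 ± 0.59, or -6.65 without LPS replicate 2). All 3 LPS libraries of these genes were far below every untreated library. Myb, a factor of proliferating progenitors, fell by 3.60 ± 0.53, and Mlxipl, the glucose-sensing factor ChREBP, by 4.01 ± 0.44. Ppp1r1b, a phosphatase inhibitor best known from neurons, fell by 3.84 ± 0.43, and the somatostatin receptor gene Sstr2 by 3.82 ± 0.40. Tmem252, Rpe65 and Col4a3 were also among the 12, with log2 changes of -3.90 ± 0.47, -3.40 ± 0.42 and -3.38 ± 0.45, and Col4a3, a basement membrane collagen, was at -2.61 without untreated replicate 1. Tmem252 was at -4.73 without LPS replicate 2.

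Counted in reads, not scaled by gene length, rather than in fold, 8 genes alone took 3.58% of all counts with LPS, against 0.402% in untreated glia. They were Lcn2 (a siderophore-binding protein), Fth1 (ferritin heavy chain), C3 (the central complement protein), Saa3, B2m, H2-K1, Ifit3 (an antiviral protein) and Cp (the copper oxidase ceruloplasmin). Lcn2 had 7075, 6909 and 7295 CPM with LPS, against 16.8, 22.5 and 22.4 CPM in untreated glia. Fth1 had 7344, 7431 and 7036 CPM with LPS, against 2602, 2096 and 1964 CPM in untreated glia, and was the gene with the highest deposited FPKM (reads per length and depth) among LPS libraries, at 8615 ± 238. The mean FPKM of Lcn2 was 2775 ± 79.2 with LPS and 8.14 ± 1.37 in untreated glia (SD, n = 3 libraries each). The 8 largest losses took 1.86% of counts with LPS, against 4.28% in untreated glia. Igfbp5, an IGF-binding protein of the matrix, led them with 1352, 1119 and 1182 CPM with LPS, against 10332, 5531 and 6207 CPM in untreated glia (-2.60 ± 0.20, adjusted p = 5.1e-08). Then came Gfap, Pea15a, Vim and Ckb, of which Ckb, the brain creatine kinase, fell by 1.13 ± 0.12. Prdx6, a peroxiredoxin, fell by 1.63 ± 0.16 and the mitochondrial transcript mt-Cytb by 0.93 ± 0.11. Igfbp2 fell by 0.74 ± 0.25 (adjusted p = 0.033), but its log2 change was -0.23 without untreated replicate 1 (adjusted p = 0.13), and leaving out LPS replicate 1, 2 or 3 also ended its call, at -0.77, -0.73 and -0.73.

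Most genes of Toll-like receptors and LPS recognition rose, and no adaptor or kinase gene below them fell. Of the 14 measured, which include receptors for other microbial products, 9 rose and 2 fell, with a median log2 change of 0.8. Cd14, the co-receptor that hands LPS to TLR4, had 221, 225 and 245 CPM with LPS, against 23.4, 29.2 and 33.8 CPM in untreated glia (3.00 ± 0.17, adjusted p = 8.2e-10). Tlr4 itself had 37.9, 38.7 and 41.3 CPM with LPS, against 18.7, 18.8 and 19.8 CPM in untreated glia (1.04 ± 0.16, adjusted p = 8.6e-05). Lbp, the serum carrier of LPS, had 219.7, 218 and 222 CPM with LPS, against 11.96, 46.04 and 44.4 CPM in untreated glia (2.68 ± 0.32). None of these groups overlapped, and in Lbp untreated replicate 1 was the lowest library. Tlr1 and Tlr2, which pair to sense bacterial lipoproteins, rose by 3.10 ± 0.18 and 2.40 ± 0.13. Tlr3, a sensor of double-stranded RNA, rose by 2.28 ± 0.11. Tlr13, which senses bacterial ribosomal RNA in mice, fell by 1.34 ± 0.15, and Ly86, the MD-1 partner of the RP105 receptor, fell by 1.01 ± 0.15.

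Among 21 adaptors and kinases below the receptors, 9 rose, 0 fell and 12 were not called, with a median of 0.15. Irak3, the kinase-dead IRAK-M that dampens the pathway, had 40.1, 36.2 and 39.7 CPM with LPS, against 2.84, 2.82 and 2.10 CPM in untreated glia (3.90 ± 0.14, adjusted p = 1.3e-12). Map3k8, the kinase that links the receptors to ERK, rose by 3.37 ± 0.21, Ripk2 by 2.58 ± 0.10 and the interferon-pathway kinase Ikbke by 2.31 ± 0.11. Myd88, the adaptor of most Toll-like receptors, rose by 1.73 ± 0.10. The kinase gene Irak4 was not called at 0.15 ± 0.09, nor was the ubiquitin ligase gene Traf6 at 0.09 ± 0.14. Map3k7, the kinase TAK1 on which the branches converge, had 85.7, 79.5 and 82.6 CPM with LPS, against 89.8, 77.7 and 79.8 CPM in untreated glia and was not called.

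In the NF-kB system, 19 of 23 measured genes rose, 0 fell and 4 were not called, with a median of 1.3. Both the inhibitors and the DNA-binding subunits are among those that rose. Tnfaip3, of which 1 promoter is shown above, had 75.1, 77.5 and 89.9 CPM with LPS, against 7.56, 7.51 and 8.40 CPM in untreated glia (3.37 ± 0.13, adjusted p = 5.2e-12). Nfkbia, the first inhibitor to be broken down and remade, had 335, 360.2 and 381 CPM with LPS, against 28.0, 37.2 and 43.04 CPM in untreated glia (3.31 ± 0.14). Zc3h12a, the ribonuclease Regnase-1 that degrades cytokine mRNA, rose by 3.48 ± 0.12, and Nfkbie, another inhibitor, by 3.39 ± 0.13. Of the subunits, Relb rose by 1.78 ± 0.11, Nfkb2 by 1.75 ± 0.08, Nfkb1 by 1.30 ± 0.07 and Rela by 0.39 ± 0.10. The upstream kinase genes Chuk and Ikbkg were not called, at 0.21 ± 0.12 and 0.18 ± 0.09, but Ikbkg was higher by 0.30 without untreated replicate 1 (adjusted p = 0.01). The third member of that complex, Ikbkb, rose by 0.35 ± 0.09. The list's largest rise was in Tnfaip2, a TNF-induced protein, with 346, 347 and 377 CPM with LPS, against 11.1, 12.4 and 15.4 CPM in untreated glia.

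**Figure D2:**
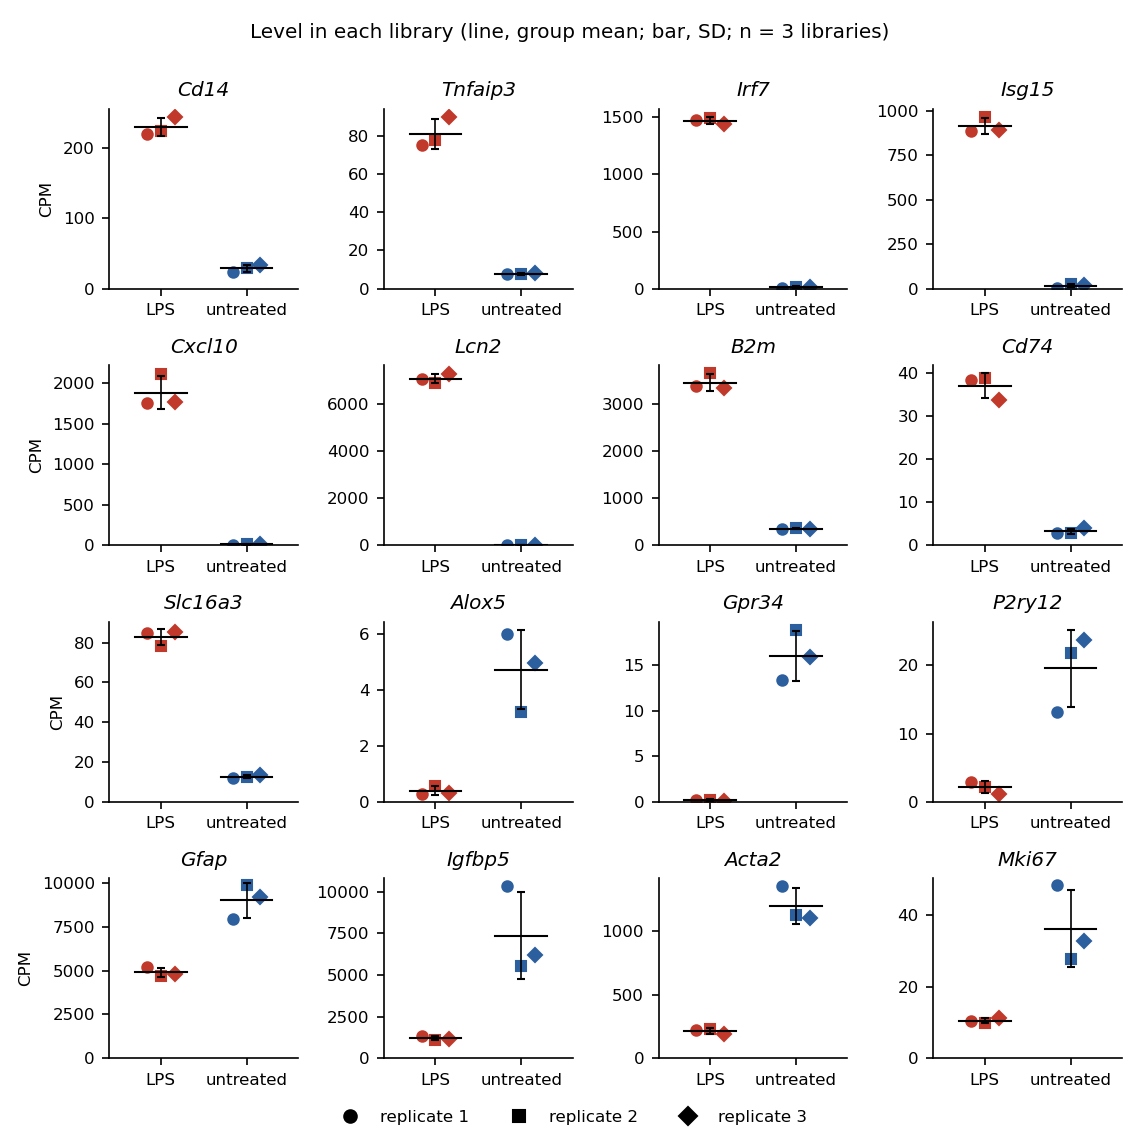
Level of 16 genes in each library (CPM, linear axes from 0), LPS in red on the left of each panel and untreated in blue on the right, with the replicate shown by the symbol (circle, square and diamond for 1, 2 and 3), the group mean as a line and the SD as a bar (n = 3 libraries each). No LPS library overlaps an untreated library in any panel, and in the panels of Alox5, Igfbp5, Acta2 and Mki67 untreated replicate 1 is the highest library.

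Most measured genes downstream of interferon rose, by the counts given below for each list, while the level of interferon beta itself was low at 24 h. Ifnb1, interferon beta, had 0.441, 0.522 and 0.601 CPM with LPS and 0 counts in untreated glia, at least 10.4-fold higher against the floor. The receptor chains were expressed in both groups, and Ifnar2 rose by 1.39 ± 0.08 and Ifnar1 by 0.38 ± 0.09. Of 7 interferon regulatory factors 5 rose and 1 fell. Irf7, the factor that amplifies interferon production, had 1474, 1499 and 1438 CPM with LPS, against 6.22, 18.7 and 15.4 CPM in untreated glia (6.77 ± 0.29, adjusted p = 1.9e-10). Untreated replicate 1 had the lowest of its 6 values. Irf1 rose by 2.27 ± 0.11 and Irf9 by 1.81 ± 0.09, Irf3, the factor activated directly below TRIF, was not called at -0.10 ± 0.10, and the myeloid factor Irf8 fell by 0.52 ± 0.10. Stat2 had 261, 274 and 262 CPM with LPS, against 22.9, 36.7 and 34.8 CPM in untreated glia (3.08 ± 0.14). The feedback genes Socs3 and Socs1 rose by 2.41 ± 0.09 and 2.30 ± 0.14, while Jak1, a kinase of the receptors, had 171, 165 and 168 CPM with LPS, against 187, 158 and 166 CPM in untreated glia and was not called.

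Sensors of foreign nucleic acid rose in 22 of 24 measured genes, with 1 lower, and the list median of 3.96 stands beside -0.008 for all genes tested. Zbp1, a sensor of Z-form nucleic acid that can trigger cell death, had 251, 264 and 249 CPM with LPS, against 0.644, 3.71 and 3.01 CPM in untreated glia (6.67 ± 0.30, adjusted p = 2.5e-10). Oasl1, of the oligoadenylate synthetase family, rose by 7.22 ± 0.26, or by 7.98 without untreated replicate 3. Oas3, of the same family, rose by 6.30 ± 0.17. The RNA helicases Ddx58 (RIG-I) and Ifih1 (MDA5) rose by 2.96 ± 0.09 and 3.22 ± 0.14, and their mitochondrial adaptor Mavs fell by 0.33 ± 0.09. The DNA sensor Mb21d1 (cGAS) rose by 1.29 ± 0.22 and its adaptor Tmem173 (STING) by 0.64 ± 0.13.

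All 6 measured genes of ISG15 conjugation rose. Isg15, the ubiquitin-like modifier with 3 overlapping ISRE cores in its promoter, had 888, 963 and 890.5 CPM with LPS, against 6.22, 24.3 and 18.8 CPM in untreated glia (5.79 ± 0.35, adjusted p = 1.2e-08). Usp18, which removes it and blocks the interferon receptor, rose by 5.22 ± 0.27, the E2 enzyme Ube2l6 by 4.05 ± 0.14 and the E1 enzyme Uba7 by 3.54 ± 0.17. The ADP-ribosylating enzymes split: 10 of 14 rose, among them Parp14 (3.34 ± 0.16) and Parp12 (2.93 ± 0.08), and Parp1, the DNA repair enzyme, fell by 0.35 ± 0.07. All 7 Schlafen genes measured rose, with a median of 3.87.

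Secreted signals made up a broad set of gains. Of 21 interleukins and colony-stimulating factors 19 rose, and of 29 chemokines 26 rose, 13 of 15 in the CC group (median 5.13) and 13 of 14 in the CXC and CX3C groups (median 4.41). Il1b, the main product of inflammasome cleavage, had 319, 299.7 and 333 CPM with LPS, against 0.483, 2.22 and 3.86 CPM in untreated glia (7.15 ± 0.36), and its log2 change was 7.84 without untreated replicate 3. Il1a, its partner at the same receptor, had 149, 148 and 163 CPM with LPS, against 0.483, 0.790 and 1.15 CPM in untreated glia (7.54 ± 0.17, adjusted p = 2.2e-14). Il1rn, the antagonist of both, rose by 6.79 ± 0.24, and Il18bp, the decoy for IL-18, by 4.43 ± 0.13. Csf3, the neutrophil growth factor, had 3.47, 3.99 and 4.59 CPM with LPS and 0 counts in untreated glia, at least 80.1-fold higher. Il19, of the IL-10 family, had 1 untreated count, in replicate 2, and a ratio of 490.0 (95% counting interval 87.5 to 19393), and its fitted log2 change of 8.44 ± 0.46 was 10.2 without that library. Csf1 and Il34, the growth factors of microglia, rose by 0.91 ± 0.21 and 1.33 ± 0.17, while their receptor Csf1r fell by 1.20 ± 0.08 (adjusted p = 2.5e-09).

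Among chemokines, Cxcl10, a ligand of CXCR3, had 1763, 2118 and 1775 CPM with LPS, against 4.13, 11.7 and 15.5 CPM in untreated glia (7.49 ± 0.36, adjusted p = 9.7e-10). Cxcl11, which shares that receptor and is annotated as a polymorphic pseudogene, had 1 untreated count, in replicate 2, and a ratio of 4899.6 (95% counting interval 879 to 193570.0), and its fitted log2 change of 11.74 ± 0.37 was 13.49 without that library. Ccl2, the main monocyte attractant, had 694, 828 and 779 CPM with LPS, against 2.36, 1.68 and 3.86 CPM in untreated glia (8.17 ± 0.21). Cxcl1, with a kappa-B pair in its promoter, had 320.5, 385 and 387 CPM with LPS, against 0.215, 0.445 and 1.86 CPM in untreated glia, and rose by 8.71 ± 0.39, or by 10.06 without untreated replicate 3. Cxcl5, a neutrophil attractant, rose by 8.37 ± 0.43 and Cxcl12, which acts on CXCR4, by 3.43 ± 0.12. Cxcl14, a constitutive chemokine, had 119, 114 and 111 CPM with LPS, against 149.7, 90.3 and 88.1 CPM in untreated glia and was not called, nor were Ccl25 and Ccl27a.

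Receptors for these signals changed in both directions. Of 16 chemoattractant receptors 10 rose and 4 fell. Fpr2 and Fpr1, which sense formylated bacterial peptides, rose by 6.34 ± 0.21 and 5.97 ± 0.22. Ccrl2, a non-signalling chemerin receptor, rose by 3.89 ± 0.21. Cx3cr1, the fractalkine receptor of microglia, had 55.8, 49.3 and 53.4 CPM with LPS, against 163, 178 and 197 CPM in untreated glia and fell by 1.76 ± 0.11 (adjusted p = 1.1e-09), while its ligand gene Cx3cl1 rose by 2.28 ± 0.07. Cxcr4 fell by 1.15 ± 0.27. Of 31 interleukin and cytokine receptors and decoys 19 rose and 2 fell, and Il6st, the shared gp130 chain, had 607, 613 and 621 CPM with LPS, against 573, 589.9 and 696 CPM in untreated glia and was not called. Tgfbr1, a receptor that holds microglia in their resting state, fell by 1.51 ± 0.14.

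Antigen presentation rose in its class I branch and, at lower levels, in class II. All 18 measured genes of the immunoproteasome and peptide loading rose, with a median of 2. B2m, the light chain of class I, had 3382, 3659.9 and 3336 CPM with LPS, against 335, 367 and 354 CPM in untreated glia (3.30 ± 0.09, adjusted p = 6.8e-14). Psmb8, an immunoproteasome subunit, rose by 3.95 ± 0.14, while the constitutive subunit it replaces, Psmb5, rose by 0.52 ± 0.11. Nlrc5, the class I transactivator, rose by 3.88 ± 0.15 and the peptide transporter Tap1 by 3.53 ± 0.12. In class II, 8 of 15 rose and 2 fell (1 fell without untreated replicate 2 or LPS replicate 1 or 2). Cd74, the invariant chain, had 38.4, 38.9 and 33.7 CPM with LPS, against 2.90, 2.77 and 3.96 CPM in untreated glia (3.52 ± 0.16), Ciita, the class II transactivator, rose by 2.28 ± 0.28 and H2-Ab1 by 2.68 ± 0.22. Ifi30, which reduces disulphides of antigens, had 17.1, 18.3 and 15.2 CPM with LPS, against 20.6, 15.7 and 14.5 CPM in untreated glia and was not called.

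Co-stimulatory and checkpoint genes rose in 18 of 23. Cd274, the checkpoint ligand PD-L1, had 122, 129 and 129 CPM with LPS, against 4.56, 6.77 and 6.44 CPM in untreated glia (4.41 ± 0.16, adjusted p = 2.9e-12). Cd40, which receives T cell help, rose by 4.98 ± 0.19 and Tnfrsf9, the 4-1BB receptor, by 5.45 ± 0.36. Cd200, a brake on microglia carried by other cells, fell by 0.65 ± 0.09, the checkpoint gene Vsir by 0.81 ± 0.08 and Havcr2 (TIM-3) by 1.41 ± 0.15. Vcam1, an adhesion molecule for leukocytes, had 1812, 1866 and 1906 CPM with LPS, against 129, 178 and 212 CPM in untreated glia (3.42 ± 0.14), and Icam1, the ligand of LFA-1, rose by 2.71 ± 0.09. The integrin chains moved apart: Itgal rose by 2.25 ± 0.16 and Itgam by 1.49 ± 0.14, Itga6 fell by 1.38 ± 0.10 and Itgb5 by 0.96 ± 0.08, and Itgb1, the common chain, had 982, 1059 and 957 CPM with LPS, against 1328, 919 and 922 CPM in untreated glia and was not called.

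Of 23 complement genes 12 rose and 5 fell. The proteases of the classical pathway rose, C1ra by 3.47 ± 0.11 and C1s1 by 2.84 ± 0.07, and C2 by 4.59 ± 0.29. C3 had 4665, 4065 and 4750.3 CPM with LPS, against 343, 479 and 554 CPM in untreated glia (3.29 ± 0.15, adjusted p = 3.1e-11). Cfb, the protease of the alternative pathway, had 12.7, 11.5 and 13.7 CPM with LPS, against 0.161, 0 and 0 CPM in untreated glia, a ratio of 250.4 (95% counting interval 85.3 to 1217). All 3 of its untreated counts came from replicate 1, and the log2 change of 7.78 ± 0.41 was 10.82 without that library. C1qa and C1qc, recognition chains made by microglia, fell by 0.45 ± 0.13 and 0.45 ± 0.11, while C1qb was not called at -0.16 ± 0.12. The membrane inhibitor gene Cd59a fell by 1.83 ± 0.11.

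Acute phase and iron-handling genes rose in 20 of 28, and the gene of the iron exporter fell. Steap4, a metal reductase of inflamed cells, had 1081, 1068 and 1146 CPM with LPS, against 6.49, 19.4 and 25.8 CPM in untreated glia (5.99 ± 0.35, adjusted p = 8.9e-09). Ptx3, a long pentraxin, had 1261, 1387 and 1363 CPM with LPS, against 35.5, 20.7 and 21.8 CPM in untreated glia (5.69 ± 0.18). Orm2 and Saa1, acute phase genes of the liver, were at 0 in untreated glia and at least 74.6-fold and 26.7-fold higher with LPS, at 3.58, 3.47 and 4.21 CPM for Orm2 and 1.05, 0.855 and 2.18 CPM for Saa1. The importers Slc39a14 and Slc11a2 rose by 1.81 ± 0.10 and 2.02 ± 0.10, and Slc40a1, ferroportin, the iron exporter, had 1.65, 1.33 and 1.64 CPM with LPS, against 13.6, 18.2 and 12.9 CPM in untreated glia (-3.27 ± 0.24, adjusted p = 1.3e-08). The ferritin chains moved unequally, with Fth1 higher by 1.71 ± 0.13 and Ftl1 not called at -0.31 ± 0.14, but it fell by 0.42 without untreated replicate 3 (adjusted p = 0.031). The transferrin receptor gene Tfrc was not called at 0.18 ± 0.31, but was higher by 0.86 without untreated replicate 1 (adjusted p = 2e-05). Of the zinc-binding metallothioneins, Mt1 fell by 0.87 ± 0.13 and Mt3, the brain form, by 1.71 ± 0.14, and the astrocyte zinc transporter Slc39a12 had 25.2, 25.3 and 26.8 CPM with LPS, against 226, 213 and 229 CPM in untreated glia and fell by 3.11 ± 0.08.

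Of 18 genes of the inflammasome and pyroptosis 10 rose and 3 fell, and of 15 death ligands and receptors 13 rose and 0 fell. Of 16 BCL2 family genes 5 rose (31.2%, against 19.5% of all genes tested) and 4 fell (25%, against 18.8%). Casp4, the mouse caspase-11 that senses LPS inside the cell, had 65.6, 75.6 and 75.5 CPM with LPS, against 1.13, 1.83 and 1.91 CPM in untreated glia (5.46 ± 0.14, adjusted p = 4.4e-14). Casp1 rose by 2.82 ± 0.10, the pore protein gene Gsdmd by 2.77 ± 0.14 and Nlrp3 by 2.02 ± 0.11, while Gsdme fell by 0.97 ± 0.18. Mlkl, the pore of necroptosis, had 70.4, 76.5 and 64.99 CPM with LPS, against 3.33, 3.21 and 2.19 CPM in untreated glia (4.60 ± 0.13), and the death ligand gene Tnfsf10 rose by 5.55 ± 0.30. The survival gene Mcl1 had 251, 261 and 261 CPM with LPS, against 281, 253 and 258 CPM in untreated glia and was not called. The near-identical copies of another survival gene, Bcl2a1a, Bcl2a1b and Bcl2a1d, rose by 6.04 ± 0.21, 2.11 ± 0.18 and 4.67 ± 0.22, and how reads divide between them is uncertain.

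Both enzymes that compete for arginine in macrophages rose. Nos2, inducible nitric oxide synthase, had 73.2, 92.8 and 82.8 CPM with LPS, against 0.0536, 0.0988 and 0.0954 CPM in untreated glia (9.84 ± 0.29, adjusted p = 1.7e-13). Its cofactor enzyme gene Gch1 rose by 3.04 ± 0.14, and Slc7a2, the arginine importer, by 1.29 ± 0.15. Arg1, which uses the same substrate, also rose, with 27.9, 28.6 and 27.5 CPM with LPS, against 0.268, 0.296 and 0.525 CPM in untreated glia (6.23 ± 0.31, adjusted p = 2.2e-10). The NADPH oxidase list had 6 of 9 genes higher and 0 lower, led by Rac2 (2.67 ± 0.12) and Cybb (2.19 ± 0.13). Ass1, which rebuilds arginine, fell by 1.05 ± 0.28, or fell by 0.44 without untreated replicate 1. Of 10 genes around tryptophan use 1 rose and 1 fell with all libraries, but 3 rose without untreated replicate 3 and 2 without LPS replicate 1. Wars, a tRNA synthetase, rose by 0.47 ± 0.07. Ido1, the inducible first enzyme of the kynurenine pathway, had 0.220, 0.285 and 0.109 CPM with LPS and 0, 0 and 0.191 CPM in untreated glia and was not called, but was higher by 4.93 without untreated replicate 3 (adjusted p = 0.0056), which held all its untreated counts.

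Of 21 genes of prostaglandin and leukotriene metabolism 6 rose and 11 fell, with the inducible prostaglandin enzymes among those that rose. Ptgs2, inducible COX-2, had 129.6, 164 and 149 CPM with LPS, against 21.6, 13.1 and 17.2 CPM in untreated glia (3.10 ± 0.24, adjusted p = 1.6e-07). Ptges, the inducible prostaglandin E synthase, rose by 3.65 ± 0.10 and the phospholipase gene Pla2g4a by 1.61 ± 0.11. Ptgs1, constitutive COX-1 and in brain a microglial gene, had 2.97, 3.42 and 4.15 CPM with LPS, against 40.4, 28.9 and 25.96 CPM in untreated glia (-3.17 ± 0.22). Alox5, the first leukotriene enzyme, had 0.275, 0.570 and 0.328 CPM with LPS, against 6.01, 3.21 and 4.96 CPM in untreated glia (-3.55 ± 0.38, adjusted p = 1.7e-06). Hpgd, which inactivates prostaglandins, fell by 2.32 ± 0.21 and Hpgds by 1.75 ± 0.15.

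In glycolysis 16 of 30 rose and 4 fell (median 0.48), led by the lactate exporter gene Slc16a3 with 85.1, 78.4 and 85.1 CPM with LPS, against 11.9, 12.5 and 13.6 CPM in untreated glia (2.71 ± 0.13). Hk3, a hexokinase of myeloid cells, rose by 2.34 ± 0.10, Pfkfb3, which speeds glycolysis, by 1.73 ± 0.09 and the hypoxia factor gene Hif1a by 1.64 ± 0.10. The 4 that fell include Pfkp, a phosphofructokinase isoform, by 1.32 ± 0.08, the lactate dehydrogenase gene Ldhb by 0.96 ± 0.15 and the aldolase gene Aldoc by 0.81 ± 0.12. Hk2 was not called (0.58 ± 0.23) with all libraries and had a log2 change of 1.09 without untreated replicate 1 (adjusted p = 1.4e-09), which held 65.7 CPM of it against 27.9 and 29.5 CPM. In the citrate cycle 15 of 27 fell and 4 rose. Acod1, which diverts aconitate to itaconate, had 214, 213 and 209 CPM with LPS, against 0.966, 0.543 and 1.34 CPM in untreated glia (7.79 ± 0.16, adjusted p = 1.1e-14). Suclg2 fell by 0.75 ± 0.07 and Pcx, the astrocyte enzyme that refills the cycle, by 0.63 ± 0.14, while Cs, citrate synthase, was not called at -0.11 ± 0.07.

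Of 71 nuclear genes of the respiratory chain 12 fell (16.9%, against 18.8% of all genes tested), 0 rose and 59 were not called, with a median of -0.14, with 8 lower and 2 higher in the fit without untreated replicate 1 and 7 lower without LPS replicate 2. Ndufb10 fell by 0.61 ± 0.11 and Ndufs1, the largest subunit of complex I, by 0.55 ± 0.06. Fatty acid oxidation had 11 of 20 lower and 0 higher (1 higher without untreated replicate 2), with Acadm, the medium-chain dehydrogenase, at 66.1, 71.2 and 67.01 CPM with LPS, against 144, 153 and 148 CPM in untreated glia (-1.12 ± 0.08) and Hadhb lower by 0.73 ± 0.07. Sterol synthesis went the other way, with 17 of 28 higher and 0 lower by small amounts (median 0.28, and 0.44 without untreated replicate 1, when 21 rose). Leaving out any other library lowered the count. It was 13 without untreated replicate 3, 14 without untreated replicate 2 or LPS replicate 1 and 15 without LPS replicate 2 or 3. Cyp51 rose by 0.69 ± 0.08 and Msmo1 by 0.55 ± 0.12. Ch25h, which makes the oxysterol that Gpr183 senses after a further step, had 121, 128 and 124 CPM with LPS, against 14.4, 9.29 and 6.58 CPM in untreated glia (3.63 ± 0.19, adjusted p = 4.2e-10). Among antioxidant genes the superoxide dismutases Sod2 and Sod3 rose, Sod2 with 505, 539.6 and 564 CPM with LPS, against 98.7, 93.7 and 95.5 CPM in untreated glia (2.48 ± 0.09), and the glutathione synthesis genes Gclm and Gclc fell by 1.08 ± 0.08 and 0.89 ± 0.11. Sod3 rose by 2.28 ± 0.31, or by 2.98 without untreated replicate 1.

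Stress pathways were divided. Of 25 genes of the ATF4 and unfolded protein responses 13 rose and 3 fell. Ddit3 (CHOP) had 48.3, 51.8 and 46.9 CPM with LPS, against 13.8, 15.6 and 12.8 CPM in untreated glia (1.80 ± 0.11, adjusted p = 8.1e-10), Atf4 rose by 1.03 ± 0.11 and the chaperone gene Hspa5 by 0.85 ± 0.08. Phgdh, the first enzyme of serine synthesis and an ATF4 target, fell by 1.36 ± 0.11. Of 19 heat shock chaperones 2 rose (10.5%, against 19.5% of all genes tested), 6 fell (31.6%, against 18.8%) and 11 were not called. Hspa1a and Hspa1b, inducible HSP70 genes, were not called, at -0.13 ± 0.15 and -0.10 ± 0.11.

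**Figure D3:**
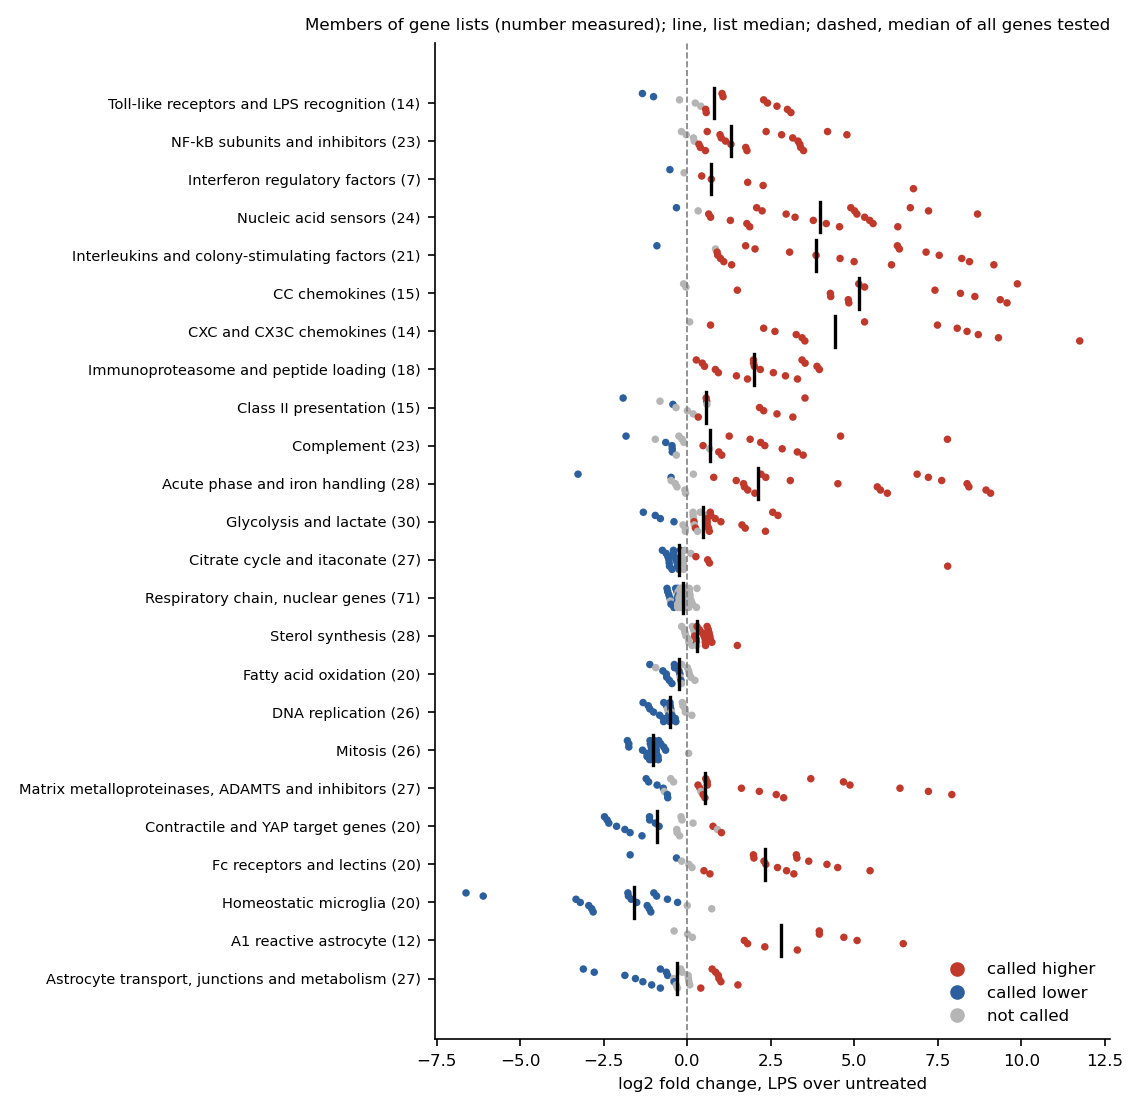
Log2 fold change of LPS over untreated (x axis) for the measured members of 24 gene lists, 1 point per gene, red for genes that rose, blue for genes that fell and grey for genes not called; the black line is the list median, the dashed line the median of all genes tested (-0.008) and the number in brackets the members measured. Signalling, cytokine, chemokine and antigen presentation lists lie to the right, while mitosis, DNA replication, contractile and homeostatic microglia lists lie to the left.

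Proliferation genes fell. Of 26 mitosis genes 25 fell and 0 rose (median -1.02), and of 26 DNA replication genes 18 fell and 0 rose (median -0.53). Mki67, the Ki-67 antigen of cycling cells, had 10.4, 9.78 and 11.2 CPM with LPS, against 48.3, 27.6 and 32.7 CPM in untreated glia (-1.79 ± 0.25, adjusted p = 3.9e-05). Ccnb2, a mitotic cyclin, fell by 1.75 ± 0.19 and the kinetochore gene Cenpf by 1.75 ± 0.24. Mcm5, with overlapping E2F letters in its promoter, had 14.2, 15.4 and 16.3 CPM with LPS, against 26.3, 25.1 and 24.2 CPM in untreated glia (-0.72 ± 0.13, adjusted p = 4e-04). Cdt1, which licenses replication origins, fell by 1.32 ± 0.20. The exception in mitosis, the spindle gene Tpx2, had 29.6, 33.1 and 27.9 CPM with LPS, against 31.9, 27.7 and 28.7 CPM in untreated glia. Of 22 p53 targets and cell cycle inhibitors 10 rose and 3 fell, or 5 fell without untreated replicate 2. Cdkn1a (p21) had 307, 326 and 303 CPM with LPS, against 206, 174 and 164 CPM in untreated glia (0.78 ± 0.10), and Cdkn2b rose by 1.38 ± 0.18 and Gadd45b by 1.63 ± 0.12. Ccnd2, the D cyclin of astrocytes and progenitors, fell by 0.86 ± 0.18.

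Of 27 matrix metalloproteinases, ADAMTS proteases and their inhibitors 17 rose and 6 fell. Mmp3, stromelysin, had 594, 621 and 681 CPM with LPS, against 4.51, 3.56 and 4.68 CPM in untreated glia (7.22 ± 0.14, adjusted p = 1.1e-14). Mmp13, a collagenase, rose by 7.92 ± 0.25, or by 8.72 without untreated replicate 3. Timp1, their inhibitor, had 1086, 1231 and 1140.5 CPM with LPS, against 43.1, 49.3 and 43.1 CPM in untreated glia (4.67 ± 0.14), and Timp2 fell by 0.59 ± 0.11. Adamts1 fell by 1.16 ± 0.41 with all libraries but had a log2 change of -0.10 without untreated replicate 1 (adjusted p = 0.39), and also lost its call without LPS replicate 1, 2 or 3, at -1.18, -1.14 and -1.17. Serpinb2, a plasminogen activator inhibitor of macrophages, rose by 3.67 ± 0.43, and Plau, urokinase, fell by 2.59 ± 0.21.

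Of 36 collagens and matrix proteins, many of them made by fibroblasts, 12 rose (33.3%) and 8 fell (22.2%, against 18.8% of all genes tested). Of 20 contractile and YAP target genes, many of them used by mural cells, 2 rose and 11 fell (4 rose and 11 fell without untreated replicate 1). Col3a1 had 1759.6, 1850.4 and 1603 CPM with LPS, against 291, 901 and 755 CPM in untreated glia (1.42 ± 0.32, adjusted p = 0.0032). Lox, which crosslinks collagen, rose by 1.80 ± 0.30 and the proteoglycan gene Dcn by 1.53 ± 0.40. Acta2, smooth muscle actin, had 225, 227 and 191 CPM with LPS, against 1355, 1129 and 1100.0 CPM in untreated glia (-2.48 ± 0.13, adjusted p = 1.4e-10). Myl9 fell by 2.40 ± 0.18 and the contractile gene Cnn1 by 1.71 ± 0.12, and the YAP target genes Ctgf and Cyr61 fell by 1.13 ± 0.22 and 0.96 ± 0.20. The summed level of 12 fibroblast and meningeal markers was 6507, 7085 and 5939 CPM with LPS, against 2207, 3950 and 3534 CPM in untreated glia. Col1a2, Col3a1, Col1a1 and Lox make up most of that sum. Of the 11 measured 6 rose, 1, Ogn, fell and 4 were not called. The sum of 11 mural markers, of which Acta2 makes up most, was 375, 370 and 336 CPM with LPS, against 1506, 1266 and 1238 CPM in untreated glia. The part of either cell type in these results was not tested.

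Of 28 growth factor genes 9 rose (32.1%, against 19.5% of all genes tested) and 8 fell (28.6%, against 18.8%). Fgf2 had 268, 259 and 280.1 CPM with LPS, against 71.4, 58.9 and 59.4 CPM in untreated glia (2.09 ± 0.13, adjusted p = 1.3e-09), and Gdnf, which supports motor and dopamine neurons, rose by 2.72 ± 0.30. Igf1 fell by 1.63 ± 0.16, and Fgf1 fell by 3.20 ± 0.33, or fell by 2.53 without untreated replicate 1. Fst, the activin antagonist follistatin, rose by 2.60 ± 0.12. The BMP response genes Id4 and Id2 fell by 2.00 ± 0.13 and 1.08 ± 0.07. Of 16 neuropeptide and granule protein genes 5 rose, 3 fell and 8 were not called, with a median of -0.16. The number that fell ran from 2 to 7 as 1 library was left out. Penk, which encodes enkephalin, had 28.2, 40.2 and 39.4 CPM with LPS, against 2.52, 1.73 and 0.954 CPM in untreated glia (4.39 ± 0.24). Vgf, a secreted granule protein, had 407, 419 and 372 CPM with LPS, against 37.2, 38.8 and 30.01 CPM in untreated glia (3.50 ± 0.12). Of 16 clock genes 2 rose (12.5%), 1 fell (6.25%) and 13 were not called, shares below those of all genes tested. In the clock list 3 fell without untreated replicate 1 and 0 without LPS replicate 1 or 3.

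Microglial genes did not move together. The summed level of 15 microglia and macrophage markers was 1753, 1627 and 1651 CPM with LPS, against 1770, 1988 and 1927 CPM in untreated glia, and 6 of them rose and 7 fell. Fcer1g, a shared Fc receptor chain, rose by 1.98 ± 0.11 and the myeloid factor gene Spi1 by 1.01 ± 0.09. The homeostatic genes fell in 18 of 20, with a median of -1.6. P2ry12, the ADP receptor that guides microglial processes, had 2.92, 2.23 and 1.20 CPM with LPS, against 13.1, 21.8 and 23.7 CPM in untreated glia (-3.20 ± 0.31, adjusted p = 5.2e-07). Fcrls fell by 2.86 ± 0.17 and Tmem119 by 1.68 ± 0.16, and Sall1, an identity factor of microglia, by 0.59 ± 0.09. The exceptions were Gpr165, not called at 0.73 ± 0.41, and Sparc, which other glia also make, with 4407, 4408 and 4187 CPM with LPS, against 4614, 4295 and 4116 CPM in untreated glia.

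Of 29 phagocytic and scavenger receptors 12 rose and 9 fell. Marco, a scavenger receptor for bacteria, had 184, 143 and 182 CPM with LPS, against 4.40, 1.98 and 5.11 CPM in untreated glia (5.47 ± 0.25, adjusted p = 2.1e-10). Msr1 rose by 2.89 ± 0.25 and the sialic acid receptor genes Siglece and Siglec1 by 4.06 ± 0.12 and 2.58 ± 0.17. Trem2, the lipid receptor, had 7.43, 7.65 and 6.55 CPM with LPS, against 63.2, 85.3 and 69.4 CPM in untreated glia (-3.33 ± 0.18, adjusted p = 3.6e-10). Mertk, which clears dying cells, fell by 0.92 ± 0.10, and its ligand gene Gas6 rose by 0.32 ± 0.07. Of 20 Fc receptors and lectins 15 rose and 2 fell, and 1 fell without untreated replicate 1 or 2 or LPS replicate 1 or 3. Fcgr4 and Fcgr1 rose by 4.18 ± 0.19 and 3.26 ± 0.12, Fcgr3 had 61.1, 56.8 and 61.3 CPM with LPS, against 51.6, 59.1 and 62.4 CPM in untreated glia and was not called, and Clec7a, the beta-glucan receptor dectin-1, fell by 1.71 ± 0.13. Of 20 purinergic receptors and ectonucleotidases 8 rose and 5 fell. The adenosine receptor genes Adora2b and Adora2a rose, Adora2b by 2.54 ± 0.22 and Adora2a by 2.75 ± 0.33, or by 3.51 without untreated replicate 1. Genes raised in disease-associated microglia had no common direction, with 9 higher, 8 lower and 6 not called of 23. Apoe, the best known of them, had 6801, 6427 and 6391 CPM with LPS, against 4214, 9096 and 8049 CPM in untreated glia and was not called, but it fell by 0.39 without untreated replicate 1 (adjusted p = 0.017).

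Lysosomal enzymes divided likewise, with 9 higher and 12 lower of 28. Ctsc had 414, 431 and 404 CPM with LPS, against 94.4, 81.9 and 89.4 CPM in untreated glia (2.23 ± 0.09), and Ctsd fell by 0.69 ± 0.10 and Lipa, acid lipase, by 1.01 ± 0.11. Ctsb, another cathepsin, was not called at 0.14 ± 0.09, but was higher by 0.22 without untreated replicate 1 (adjusted p = 0.031).

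Among astrocyte genes most reactive genes rose, while the main filament genes and several transport genes fell. The sum of 15 astrocyte markers was 11061, 10547 and 10502 CPM with LPS, against 13341, 16699 and 16189 CPM in untreated glia. Gfap, whose fall is given below, makes up the largest part of that sum. Of the 15 markers 2 rose, 8 fell and 5 were not called, and 11 fell without untreated replicate 1. Of 13 genes shared by many reactive states 10 rose, of 12 genes of the A1 set, which LPS defined in mouse brain, 9 rose and 0 fell (1 fell without untreated replicate 3), and of 12 genes of the A2 set 7 rose and 3 fell. Gbp2, an interferon-induced GTPase in the A1 set, had 1432, 1603 and 1476 CPM with LPS, against 27.6, 73.96 and 73.6 CPM in untreated glia (4.68 ± 0.29, adjusted p = 9.6e-09). S1pr3 and Cd44 of the shared set rose by 1.90 ± 0.10 and 1.81 ± 0.11. Gfap, the filament usually used to mark reactive astrocytes, went down, with 5204, 4677 and 4820.0 CPM with LPS, against 7933, 9887 and 9234 CPM in untreated glia (-0.88 ± 0.10, adjusted p = 3.9e-06). Vim fell by 0.72 ± 0.12 and Nes, a filament of immature glia, by 1.57 ± 0.15. Which cell types the falls of these filament genes came from was not tested.

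Astrocyte functions were unequally affected, with 7 higher (25.9%, against 19.5% of all genes tested), 11 lower (40.7%, against 18.8%) and 9 not called of 27. As 1 library was left out the number that fell ran from 8 to 15 and the number that rose from 5 to 7. Gja1, the main gap junction protein, had 212, 209 and 184 CPM with LPS, against 330.0, 588 and 602 CPM in untreated glia (-1.33 ± 0.17, adjusted p = 2.1e-05). Kcnj10, the potassium channel Kir4.1, had 412, 378 and 394 CPM with LPS, against 716, 839.8 and 924 CPM in untreated glia (-1.07 ± 0.10). Slc1a2, a glutamate transporter, rose by 0.93 ± 0.19, and Slc1a3, the other, was not called at -0.20 ± 0.08, but it fell by 0.28 without untreated replicate 1 (adjusted p = 0.0024). Glul, which turns glutamate to glutamine, fell by 0.59 ± 0.08. The GABA transporter gene Slc6a11 fell by 2.79 ± 0.51 and the bicarbonate transporter gene Slc4a4 by 1.87 ± 0.19, while Aldh1l1, a general astrocyte marker, had 269.7, 248 and 264 CPM with LPS, against 262, 257 and 238 CPM in untreated glia and was not called.

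The counts for markers of oligodendrocyte precursors and ependymal cells depended on untreated replicate 1. The sum of 13 oligodendrocyte precursor markers was 787, 825 and 838 CPM with LPS, against 873, 1222 and 1283 CPM in untreated glia. With all libraries 0 of the 12 measured rose and 3 fell, and without that library 6 fell. The sum of 12 ependymal cilia markers was 458, 446 and 466 CPM with LPS, against 243, 762 and 745 CPM in untreated glia, and 5 fell with all libraries, 11 without it, 0 without untreated replicate 3 and 3 without LPS replicate 2. Ptprz1, a phosphatase of precursors and astrocytes, fell by 0.79 ± 0.18, and C1ql1, of precursors, by 1.87 ± 0.14. Oligodendrocyte and myelin markers summed to 284, 274 and 275 CPM with LPS, against 206, 382 and 373 CPM in untreated glia, and of 8 measured 2, Mag and Myrf, rose and 1 fell with all libraries, 2 rose and 5 fell without untreated replicate 1, and 0 fell without any 1 of the LPS libraries, with 1 higher without LPS replicate 2 or 3. Endothelial markers summed to 53.7, 58.8 and 53.4 CPM with LPS, against 36.7, 44.3 and 43.6 CPM in untreated glia. Of 8 measured 3, Cdh5, Ly6c1 and Pecam1, rose, 1, Kdr, fell and 4 were not called. Cldn5 and Tie1 were at 0 in all 6 libraries. The 13 neuronal markers summed to 168, 182 and 177 CPM with LPS, against 193, 167 and 159 CPM in untreated glia, and of 11 measured 4 rose, the low-level genes Gad1, Gad2, Nefl and Nefm, and 0 fell. Of 14 lymphocyte and neutrophil markers 8, among them Cd3e, S100a9 and Mpo, were at 0 in all 6 libraries, and 1, the antimicrobial peptide gene Camp, was high enough to test and rose, with 3.47, 3.70 and 5.19 CPM with LPS, against 0.0536, 0 and 0 CPM in untreated glia.

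Transcription factor genes, by the family column of the deposited annotation, numbered 1025, of which 180 rose (17.6%, against 19.5% of all genes tested) and 124 fell (12.1%, against 18.8%). The bZIP family had 17 higher and 2 lower of 43 and the ETS family 11 higher and 2 lower of 21, while bHLH had 9 higher and 17 lower of 57 and HMG, which holds the Sox genes, 4 higher and 12 lower of 40. Chosen after their values were seen, Cebpb, a factor of the acute phase, had 122, 137 and 132 CPM with LPS, against 27.5, 23.6 and 23.3 CPM in untreated glia (2.39 ± 0.14, adjusted p = 9.5e-10), and its relative Cebpa had 9.97, 9.78 and 9.67 CPM with LPS, against 41.5, 44.8 and 41.99 CPM in untreated glia (-2.12 ± 0.15, adjusted p = 9e-09). The 2 genes thus moved apart in every library. Junb rose by 1.74 ± 0.08, and Fos and Egr1, which are typical of the first hour of a response, fell by 0.51 ± 0.09 and 0.75 ± 0.18. Among long non-coding RNAs, Mir155hg, the host of the inflammatory microRNA miR-155, had 2.59, 2.85 and 3.82 CPM with LPS, against 0.107, 0.0988 and 0.0954 CPM in untreated glia (4.85 ± 0.40, adjusted p = 6.1e-08). Ptgs2os2 and Ptgs2os lie beside Ptgs2 and rose by 4.38 ± 0.45 and 3.02 ± 0.39, but the libraries do not record strand, so reads of overlapping genes cannot be told apart. Sox1ot fell by 2.13 ± 0.23, Pinc by 3.20 ± 0.63 (it fell by 4.05 without LPS replicate 2) and the snoRNA host Snhg4 by 1.90 ± 0.27.

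A gene that was not called may still have changed. Of the 9909 such genes many have wide intervals. Over all 16073 genes, the 95% interval of the log2 change lay within 1.5-fold either way for 6749. Ribosomal protein genes show how small a called difference can be: 22 of 78 rose (28.2%, against 19.5% of all genes tested) and 0 fell. Rplp0 rose by 0.29 ± 0.10 with 873, 883 and 893 CPM with LPS, against 700.3, 783 and 685 CPM in untreated glia. When 1 library was left out the count ranged from 8 to 20. It was 8 without untreated replicate 3 or LPS replicate 3, 9 without LPS replicate 2 and 12 without LPS replicate 1. Rplp0 was not called without untreated replicate 3, or without any 1 of the LPS libraries, at 0.25 to 0.29.

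Without untreated replicate 1, 7032 of 16417 genes were called, 42.8%. Of the 6164 genes called with it 5599 kept their call and direction, 565 were no longer called (176 of the higher and 389 of the lower) and 0 reversed, while 1324 became called (570 higher and 754 lower). Calls that needed that library include Adamts1, Igfbp2 and Dusp4, an ERK phosphatase gene that fell by 1.15 ± 0.41 with it and had a log2 change of -0.20 without it (adjusted p = 0.39). Dusp4 had 7.38, 6.22 and 6.77 CPM with LPS, against 29.7, 7.81 and 7.82 CPM in untreated glia. Its LPS libraries thus lie near the level of untreated replicates 2 and 3. Leaving out LPS replicate 1, 2 or 3 also ended the call of Dusp4, at -1.21, -1.09 and -1.15. Hmox1 changed sign: it was not called at -0.36 ± 0.28 with all libraries and rose by 0.27 without untreated replicate 1 (adjusted p = 0.026).

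**Figure D4:**
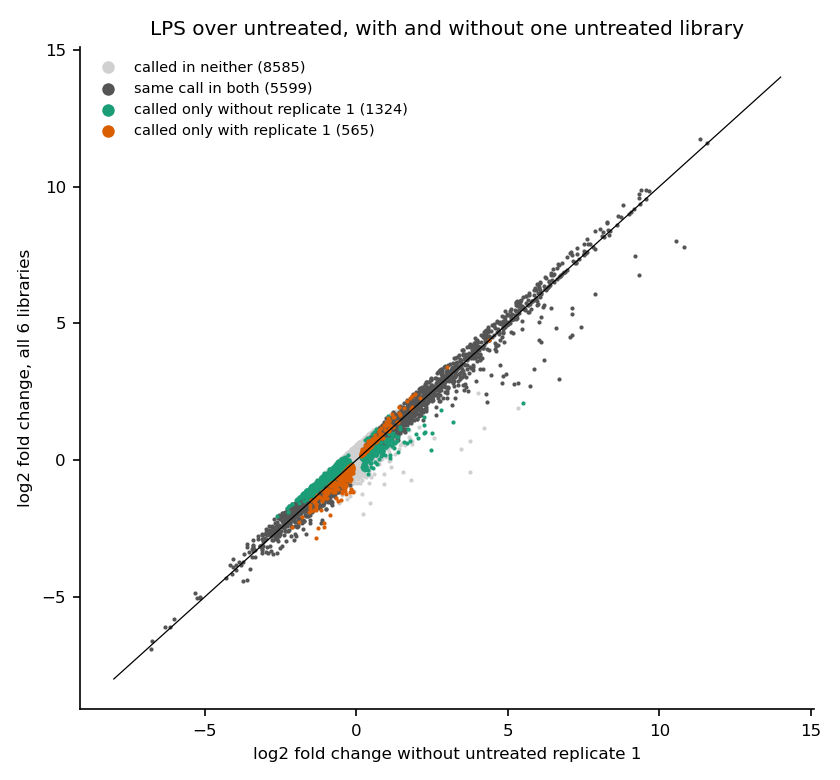
Log2 fold change of LPS over untreated for each gene without untreated replicate 1 (x axis) and with all 6 libraries (y axis); dark grey genes had the same call in both fits (5599), orange genes were called only with the library (565), green genes only without it (1324) and light grey genes in neither. Most points lie along the diagonal.

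To ask which of these changes another stimulus shares, the LPS effect was set against that of IL-4, the cytokine of alternative macrophage activation. Each effect was taken over the untreated group of its own experiment, in a fit of all 27 libraries. LPS was given only in experiment 1 and IL-4 only in experiment 2. A difference between the stimuli thus cannot be told apart from a different response of the cultures of the 2 experiments. The effects differed in 4347 of 16647 genes (26.1%), with the LPS effect above in 2098 and below in 2249. In that fit LPS changed 5579 genes and IL-4 224. The untreated library labelled replicate 1 of experiment 2 stands apart from its group as well. Sox10 was at 36.8 CPM there and at 0.272 and 0.222 CPM in the other two, the reverse of its pattern among the untreated libraries of experiment 1. Without both of these libraries 4176 genes had a called difference.

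The genes with the largest fitted differences above were Cxcl9, Nos2, Saa3, Ms4a4d, Ccl5, H2-Q6, Ms4a4c and Cxcl5. Cxcl9, Nos2 and Ms4a4d were at 0 in all 3 IL-4 libraries, so the sizes of their differences depend on the model and their place in the order is no measurement. Saa3 changed by 8.92 with LPS and by -2.39 with IL-4, a difference of 11.31 ± 0.82 (adjusted p = 3.8e-10), or of 9.71 without untreated replicate 1 of experiment 2 and 9.40 without both untreated libraries labelled replicate 1. Ms4a4c, a myeloid membrane protein, changed by 7.69 and -2.20, a difference of 9.89 ± 0.50. Below, likewise in fitted order, were Retnla and Atp6v0d2, both at 0 in all 3 LPS libraries, then Itgax, Ccl24, Tmem26, Slco2b1, Gpr183 and Htr5b. Retnla, the alternative activation gene Fizz1, had 52.8, 77.8 and 112 CPM with IL-4, against 0 in the untreated libraries of experiment 2, and it had 0 with LPS, against 0, 0.0521 and 0.0503 CPM in the untreated libraries of experiment 1. Its difference was called (adjusted p = 0.0083), but not without untreated replicate 3 of experiment 1 (adjusted p = 0.053). Itgax, the integrin CD11c, had an LPS effect of -1.28, not called, and an IL-4 effect of 5.14. Its difference was -6.43 ± 0.66, and it was -7.23 without untreated replicate 1 of experiment 2, -5.77 without untreated replicate 2 of experiment 1 and -7.40 without both untreated libraries labelled replicate 1. The difference for Ccl24, an eosinophil chemokine, was -5.86 ± 1.64 (adjusted p = 0.01). It was no longer called without untreated replicate 1 or 2 of experiment 1, at -5.69 and -5.20 (adjusted p = 0.054 and 0.11), or without both untreated libraries labelled replicate 1, at -5.43 (adjusted p = 0.089), and it was -7.87 without LPS replicate 3 and -6.81 without untreated replicate 2 of experiment 2.

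Of 160 genes that both stimuli changed, 105 moved the same way and 55 moved in opposite directions with the difference called. The 160 are part of the 224 genes that IL-4 changed, while over all 16647 genes tested LPS changed 5579. Of the 105 genes that moved the same way, 46 also had a called difference in size. These counts were not repeated without the untreated libraries labelled replicate 1. Among the opposite genes, Cd14 changed by 2.97 with LPS and by -1.73 with IL-4 (difference 4.70 ± 0.29, adjusted p = 1.9e-11). Tlr2 changed by 2.38 and -1.50, and the cytokine gene Tnf by 3.83 and -1.33. In the other direction Mrc1, the mannose receptor, changed by -2.91 with LPS and by 1.94 with IL-4 (difference -4.84 ± 0.37, adjusted p = 9.3e-10). Clec7a changed by -1.73 and 2.26, Ptgs1 by -3.19 and 1.18, and the proliferation gene Mki67 by -1.81 and 1.15. These genes were chosen after their values were seen. On the shared side Arg1 had an LPS effect of 6.21, an IL-4 effect of 10.59 and a difference of -4.38 ± 0.68 (adjusted p = 3.8e-05), which was -5.45 without untreated replicate 1 of experiment 2 and -5.62 without both untreated libraries labelled replicate 1.

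**Figure D5:**
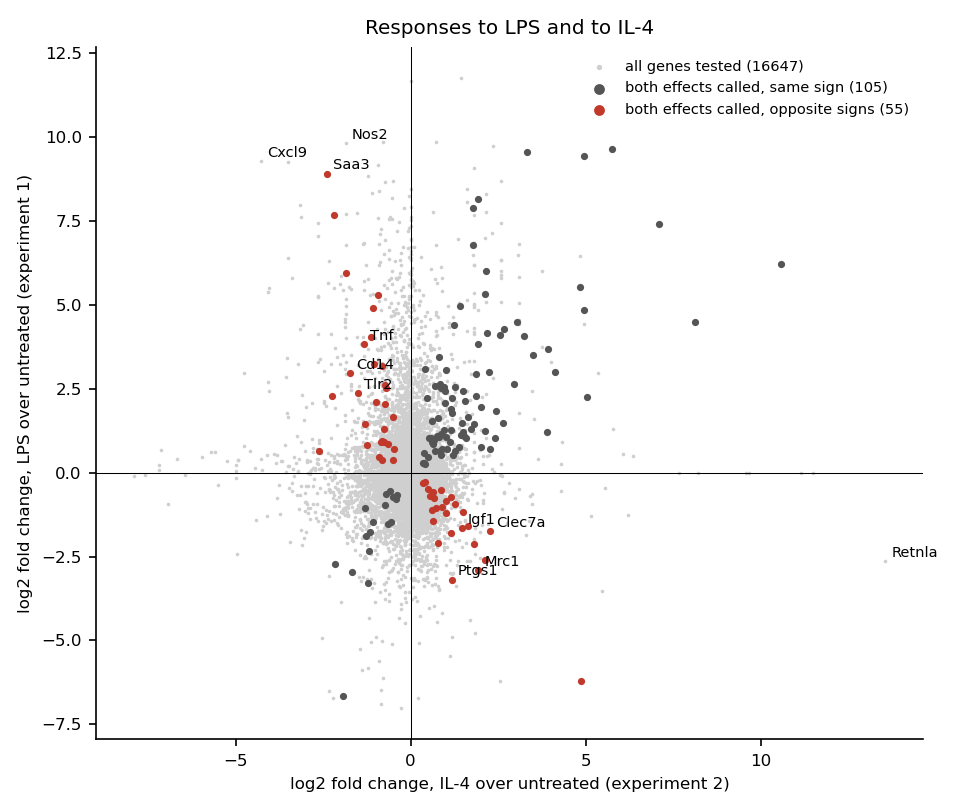
Log2 fold change of IL-4 over the untreated group of experiment 2 (x axis) and of LPS over the untreated group of experiment 1 (y axis), 1 point per gene tested (16647, light grey); dark grey genes were changed by both in the same direction (105) and red genes by both in opposite directions with the difference called (55). Cd14, Tlr2, Tnf and Saa3 lie at the upper left and Mrc1, Clec7a, Igf1 and Ptgs1 at the lower right.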

How the data were processed

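RNA was extracted with RNeasy kits and made into unstranded polyA libraries, per the labels' protocols. The submitters' processing notes name fastp, STAR, featureCounts and build mm10. Versions and settings are not given in the sources used here. For each of the 27 libraries the deposited table holds whole-number read counts made by the authors, not normalized, beside FPKM values that the authors scaled by gene length and depth. FPKM served here only to compare levels between genes.

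The members and gene lists were chosen with earlier results of these data known. The counts of the 15 libraries of experiment 1 were fitted with edgeR 4.0.16 (R 4.3.3; filterByExpr, TMM scaling, robust quasi-likelihood test, 1 mean per group), and genes were called at a Benjamini-Hochberg adjusted p under 0.05. The LPS and IL-4 effects were compared as a contrast in a fit of all 27 libraries. An SE is the log2 change divided by the square root of F, or the model's SE where the change was under 0.1. The replicates of a group differed by more than sampling noise, with a chi-square per degree of freedom of 2.8 to 5.94 between libraries other than untreated replicate 1 and of 47.4 and 52.7 with it, so no library was counted as a copy. The test was checked on simulated counts.

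Genes named were the 12 largest changes each way among called protein-coding genes at 5 CPM or more with groups that do not overlap, the 8 largest gains and losses in CPM, the 3 largest each way among named non-coding RNAs at 1 CPM or more, the 8 largest differences from IL-4 each way, and members of each list by size and role; some genes these rules pick are not reported here. Replicate numbers were not taken as pairs. Alternatives were DESeq2 1.42.0, its size factors in edgeR, no filter on low counts, fits of only 6 or of all 27 libraries, the replicate number as a block, a test against a fold of 1.5, and leaving out each library. Promoters are RefSeq windows matched by symbol, and their coordinates are those of the reference table.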

Additional observations from a re-analysis of the deposited data

How the results depend on the processing

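Tested against a fold of 1.5, which is a stricter question, 2130 genes passed (1299 higher, 831 lower), and 40 of the 276 genes whose change is given above lost their call. Every other alternative kept the count within 1.5 times of 6164: leaving out 1 library gave 5100 (without LPS replicate 2) to 7032 (without untreated replicate 1), DESeq2 gave 6364, its size factors 6182, no filter 5853, only the 6 libraries 5549 and all 27 libraries 5579. Replicate numbers do not pair the groups by the labels, and the deviations of same-numbered LPS and untreated libraries from their group means had r of 0.065 to 0.076, although each LPS library correlated best with its own number. With the number as a replicate block 5935 genes were called. For the difference from IL-4 the counts ran from 3308 without a filter to 5137 without untreated replicate 3 of experiment 2, and the block gave 4194. Among genes given above, Apoe ran from -0.39 to 0.08, Hmox1 from -0.61 to 0.27 and Tfrc from -0.08 to 0.86 as 1 library was left out, so their sign differed between these fits. Adamts1, Dusp4 and Igfbp2 lost their calls without a filter and with only the 6 libraries, where Ass1, Csf1, Cxcr4 and Dcn lost theirs too, and Adamts1, Dusp4 and Rplp0 lost theirs with the block. With all 27 libraries C1qa, Dusp4 and Rplp0 were not called. The cause was not tested. With 3 libraries a group and 3 counts equal to at least 0.15 CPM, changes of genes near that floor cannot be resolved.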
